A study of Mus musculus with 96 samples.

Results

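AMP-activated protein kinase (AMPK) is an enzyme complex of a catalytic alpha, a scaffold beta and a nucleotide-binding gamma subunit. In the mouse its subunits are encoded by 7 genes, Prkaa1 and Prkaa2 (alpha), Prkab1 and Prkab2 (beta), and Prkag1, Prkag2 and Prkag3 (gamma), and Stk11 encodes LKB1, the kinase that phosphorylates the alpha subunit. These 8 genes were chosen by name, and each name matched 1 of the 56748 genes of the count table. The gamma subunit binds AMP, ADP and ATP, so the complex reads the energy state of the cell, and LKB1 is active in a complex with a STRAD and an MO25 protein. Active AMPK turns down the synthesis of fatty acids and promotes fatty acid oxidation, glucose uptake and autophagy. Its activity is set by phosphorylation and nucleotide binding, which transcript counts do not measure.

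Liver, skeletal muscle and cerebral cortex of C57BL/6 mice with free access to food (AL) or on intermittent fasting (IF) were sequenced, to ask how a long period of daily fasting alters gene expression in these tissues. Mice 1 to 16, labelled male, were 8 AL and 8 IF animals that entered the regimen at 6 weeks of age and stayed on it for 4 months, the IF mice without food for 16 h of each day. Mice 25 to 40, labelled female, were 8 AL and 8 IF animals for which the labels give the diet and no schedule, duration or age. No genotype, transgene or drug is stated for any group, and the mouse set and the sex label are the same division of the animals, so the part of each cannot be told apart.

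The values are raw read counts per gene. The library totals lay between 26097314 and 49838004 reads, with a median of 36132954. Of 96 libraries, 95 were used. The library labelled as cortex of AL mouse 1, a male, held 213 CPM of Xist (reads of a gene scaled to the size of the library) and 0 of the Y-linked genes examined, where the other 47 libraries labelled male held at most 0.612 CPM of Xist and at least 67.9 CPM of the Y-linked genes. Its counts lay closest to those of cortex of IF mouse 40, a female. It was left out, which leaves 7 AL cortex libraries in mice 1-16 and 8 libraries in every other group.

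The tissue labels were checked against defining markers in the AL libraries of mice 1-16. A list of 5 hepatocyte genes, led by Alb, summed to a median of 54763 CPM in liver and 4.71 CPM in muscle. A list of 5 muscle fibre genes, led by Acta1, summed to 133209 CPM in muscle and 1.57 CPM in liver. A list of 5 neuron genes, led by Snap25, summed to 6093 CPM in cortex and 5.12 CPM in liver. Each label was thus matched by its own markers.

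Levels are given as CPM of the library after TMM scaling within a tissue and mouse set, and levels of different genes are set side by side only after division by gene length (CPM per kb). Positions are those of GRCm39. Differences are log2 fold changes ± standard error from edgeR's quasi-likelihood test over all genes that passed its expression filter, with p-values adjusted over all genes tested, and a gene is called where the adjusted p is under 0.05. All 8 genes passed the filter in liver and muscle, and 7 in cortex, where Prkag3 did not. In bulk tissue, fewer cells of a type and less RNA per cell cannot be told apart.

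Fed mice showed first how the subunits are spread over the tissues. In AL mice 1-16, 7 of the 8 genes were called between liver and muscle, where 79.2% of all genes tested were called. Between liver and cortex 5 were called beside 83.4%, and between muscle and cortex 6 beside 80.2%. In AL mice 25-40 the counts were 7 beside 79.1% for liver and muscle, 6 beside 84% for liver and cortex, and 7 beside 80.5% for muscle and cortex. These shares are near or below the background, since most genes differ between such tissues, and the sizes of the differences carry more than the counts.

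Comparisons with cortex depended on scaling. Over the 3 tissues the median TMM factor in mice 1-16 was 1.59 in cortex, 0.864 in liver and 0.756 in muscle. Scaling by library totals alone moved the median of all genes between liver and cortex by -0.83 in mice 1-16 and -0.63 in mice 25-40, and that between muscle and cortex by -1.04 and -0.87. The share of called genes that were higher in the first tissue then went from 45.0 to 28.6% (liver and cortex) and from 44.1 to 22.3% (muscle and cortex) in mice 1-16. In mice 25-40 it went from 43.8 to 30.6% and from 44.2 to 24.0%. Between liver and muscle the shift was smaller, 0.16 in mice 1-16 and 0.19 in mice 25-40. A difference from cortex is therefore described below as one in either scaling, or as one that turns with it.

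Prkaa1 encodes the alpha1 catalytic subunit (ENSMUSG00000050697, chromosome 15, 5173343 to 5211380, plus strand). In AL mice 1-16 its lowest, median and highest levels were 8.89, 10.2 and 12.1 CPM in liver, 7.35, 9.02 and 10.52 CPM in muscle, and 17.5, 18.9 and 21.6 CPM in cortex. Every cortex library stood above every liver and muscle library, and the ranges of liver and muscle overlapped, so those neighbours did not differ beyond their spread. The size of the tested difference from cortex depended on the scaling, as liver minus cortex was -0.13 ± 0.09 (adjusted p 0.197) with TMM over the tissues and became a call of -0.97 with library totals. Muscle minus cortex turned in mice 25-40, from 0.30 ± 0.09 (adjusted p 0.00649) to -0.59. In mice 25-40 Prkaa1 was lower in liver than in muscle by TMM, at -0.39 ± 0.09 (adjusted p 0.000864), and this call ended with library totals, at -0.14 (adjusted p 0.25).

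Prkaa2 encodes the alpha2 subunit, the main catalytic isoform of skeletal muscle (ENSMUSG00000028518, chromosome 4, 104887071 to 104967087, minus strand). AL libraries of mice 1-16 held 111, 134 and 154 CPM in muscle, 20.4, 22.8 and 28.7 CPM in cortex and 11.6, 14.9 and 21.1 CPM in liver. Muscle lay far above both other tissues with no overlap, and cortex and liver overlapped. Liver was below muscle by -3.38 ± 0.11 (adjusted p 3.6e-16) in mice 1-16 and by -3.48 ± 0.08 (adjusted p 3.4e-18) in mice 25-40, with all 8 liver libraries below all 8 muscle libraries in each set. Muscle was above cortex in both scalings, by 3.43 with TMM and 2.38 with library totals in mice 1-16. Liver minus cortex was not called with TMM in mice 1-16 (0.05, adjusted p 0.673) and was -0.78 with library totals. In mice 25-40 the order of liver and cortex turned, from 0.39 to -0.24.

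Prkab1 encodes the beta1 scaffold subunit, which holds the complex together and carries a glycogen-binding region (ENSMUSG00000029513, chromosome 5, 116151645 to 116162567, minus strand). Its levels in AL mice 1-16 were 25.5, 39.7 and 52.7 CPM in liver, 17.3, 18.7 and 19.7 CPM in cortex and 7.90, 9.12 and 11.4 CPM in muscle. The 3 tissues did not overlap, with liver first, cortex next and muscle last, in both diets and both mouse sets. Liver exceeded muscle by 1.82 ± 0.12 (adjusted p 4.3e-11) in mice 1-16 and by 1.79 ± 0.08 (adjusted p 6.8e-14) in mice 25-40. Liver also exceeded cortex in either scaling, by 1.86 with TMM and 1.03 with library totals in mice 1-16. The difference of muscle from cortex was not called with TMM (0.04, adjusted p 0.756) and was -1.01 with library totals.

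Prkab2 encodes the beta2 subunit (ENSMUSG00000038205, chromosome 3, 97565509 to 97581128, plus strand). It ran opposite to Prkab1, with 181.8, 202 and 265 CPM in muscle, 23.2, 28.03 and 36.2 CPM in cortex and 1.84, 2.30 and 4.18 CPM in liver of AL mice 1-16. No library of 1 tissue reached the range of another, in either diet or mouse set. Liver was below muscle by -6.63 ± 0.12 (adjusted p 1.9e-19) in mice 1-16 and by -6.74 ± 0.18 (adjusted p 2.1e-17) in mice 25-40. Muscle was above cortex by 3.92 with TMM and 2.87 with library totals, and liver was below cortex by -2.71 and -3.54, in mice 1-16.

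Prkag1 encodes the gamma1 nucleotide-binding subunit (ENSMUSG00000067713, chromosome 15, 98710678 to 98729402, minus strand). Its AL levels in mice 1-16 were 26.3, 33.96 and 37.99 CPM in cortex, 23.7, 32.97 and 40.1 CPM in muscle and 18.8, 20.1 and 25.6 CPM in liver. Neighbours overlapped in each diet and mouse set, and the order was the same except in AL mice 25-40, where liver (median 25.7 CPM) came before muscle (24.5 CPM). Liver was below muscle by -0.81 ± 0.10 (adjusted p 5.3e-07) in mice 1-16. In mice 25-40 that difference, fitted with TMM over the tissues, was -0.29 ± 0.12 (adjusted p 0.0354), against the order of the medians, and ended with library totals (-0.04, adjusted p 0.795). Muscle minus cortex turned from 0.93 to -0.13 in mice 1-16 and from 0.41 to -0.48 in mice 25-40 when library totals replaced TMM.

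Prkag2 encodes the gamma2 subunit (ENSMUSG00000028944, chromosome 5, 25067742 to 25305640, minus strand). AL mice 1-16 had 63.7, 73.0 and 83.1 CPM in cortex, 20.2, 25.2 and 34.99 CPM in liver and 9.504, 12.7 and 15.3 CPM in muscle. Cortex was highest with no overlap in every group, and liver was clear of muscle except in IF mice 1-16. Liver exceeded muscle by 0.82 ± 0.11 (adjusted p 8.8e-07) in mice 1-16 and by 1.19 ± 0.11 (adjusted p 3.1e-09) in mice 25-40. Muscle was below cortex in either scaling, by -1.53 with TMM and -2.58 with library totals in mice 1-16. Liver was also below cortex, by -0.71 in mice 1-16 and by -0.26 ± 0.10 (adjusted p 0.0294) in mice 25-40, where the call ended in a fit without the mouse as a block (-0.22, adjusted p 0.0977).

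Prkag3 encodes the gamma3 subunit, known for its place in fast glycolytic muscle fibres (ENSMUSG00000006542, chromosome 1, 74778081 to 74788380, minus strand). Muscle of AL mice 1-16 held 176, 204 and 260 CPM. Liver of the same group held 0, 0.258 and 0.650 CPM and cortex 0, 0.0594 and 0.132 CPM, from counts of at most 29 reads in any of those liver libraries. Every muscle library stood above every library of the other tissues, and liver and cortex overlapped near 0. Liver was below muscle by -9.75 ± 0.35 (adjusted p 1.8e-15) in mice 1-16 and by -8.82 ± 0.32 (adjusted p 1.7e-15) in mice 25-40, fitted values that rest on few reads in liver.

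Stk11 encodes LKB1 (ENSMUSG00000003068, chromosome 10, 79951637 to 79966516, plus strand). In AL mice 1-16 its levels were 192, 202 and 230 CPM in muscle, 134, 180 and 200 CPM in liver and 122, 137 and 150 CPM in cortex. The neighbouring ranges overlapped in that group, whereas in AL mice 25-40 liver (201, 226 and 257 CPM) stood clear of muscle (160, 168 and 192 CPM) and muscle clear of cortex (118, 142 and 158 CPM). Liver was below muscle by -0.50 ± 0.08 (adjusted p 1.4e-05) in mice 1-16. In mice 25-40 the same difference was 0.10 ± 0.08 (adjusted p 0.288) and became a call with library totals, at 0.35 (adjusted p 0.000483). Both liver and muscle exceeded cortex in either scaling and both sets. The end of Stk11 shares bases with the antisense gene Cbarp, which reached 538 CPM, so a count that ignored the strand could mix the reads of both. Prkag2 also spans 3 genes of the opposite strand, of which Prkag2os1 reached 18.3 CPM. The libraries were prepared as directional, and the strand setting of the counting is not stated.

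**Figure D1:**
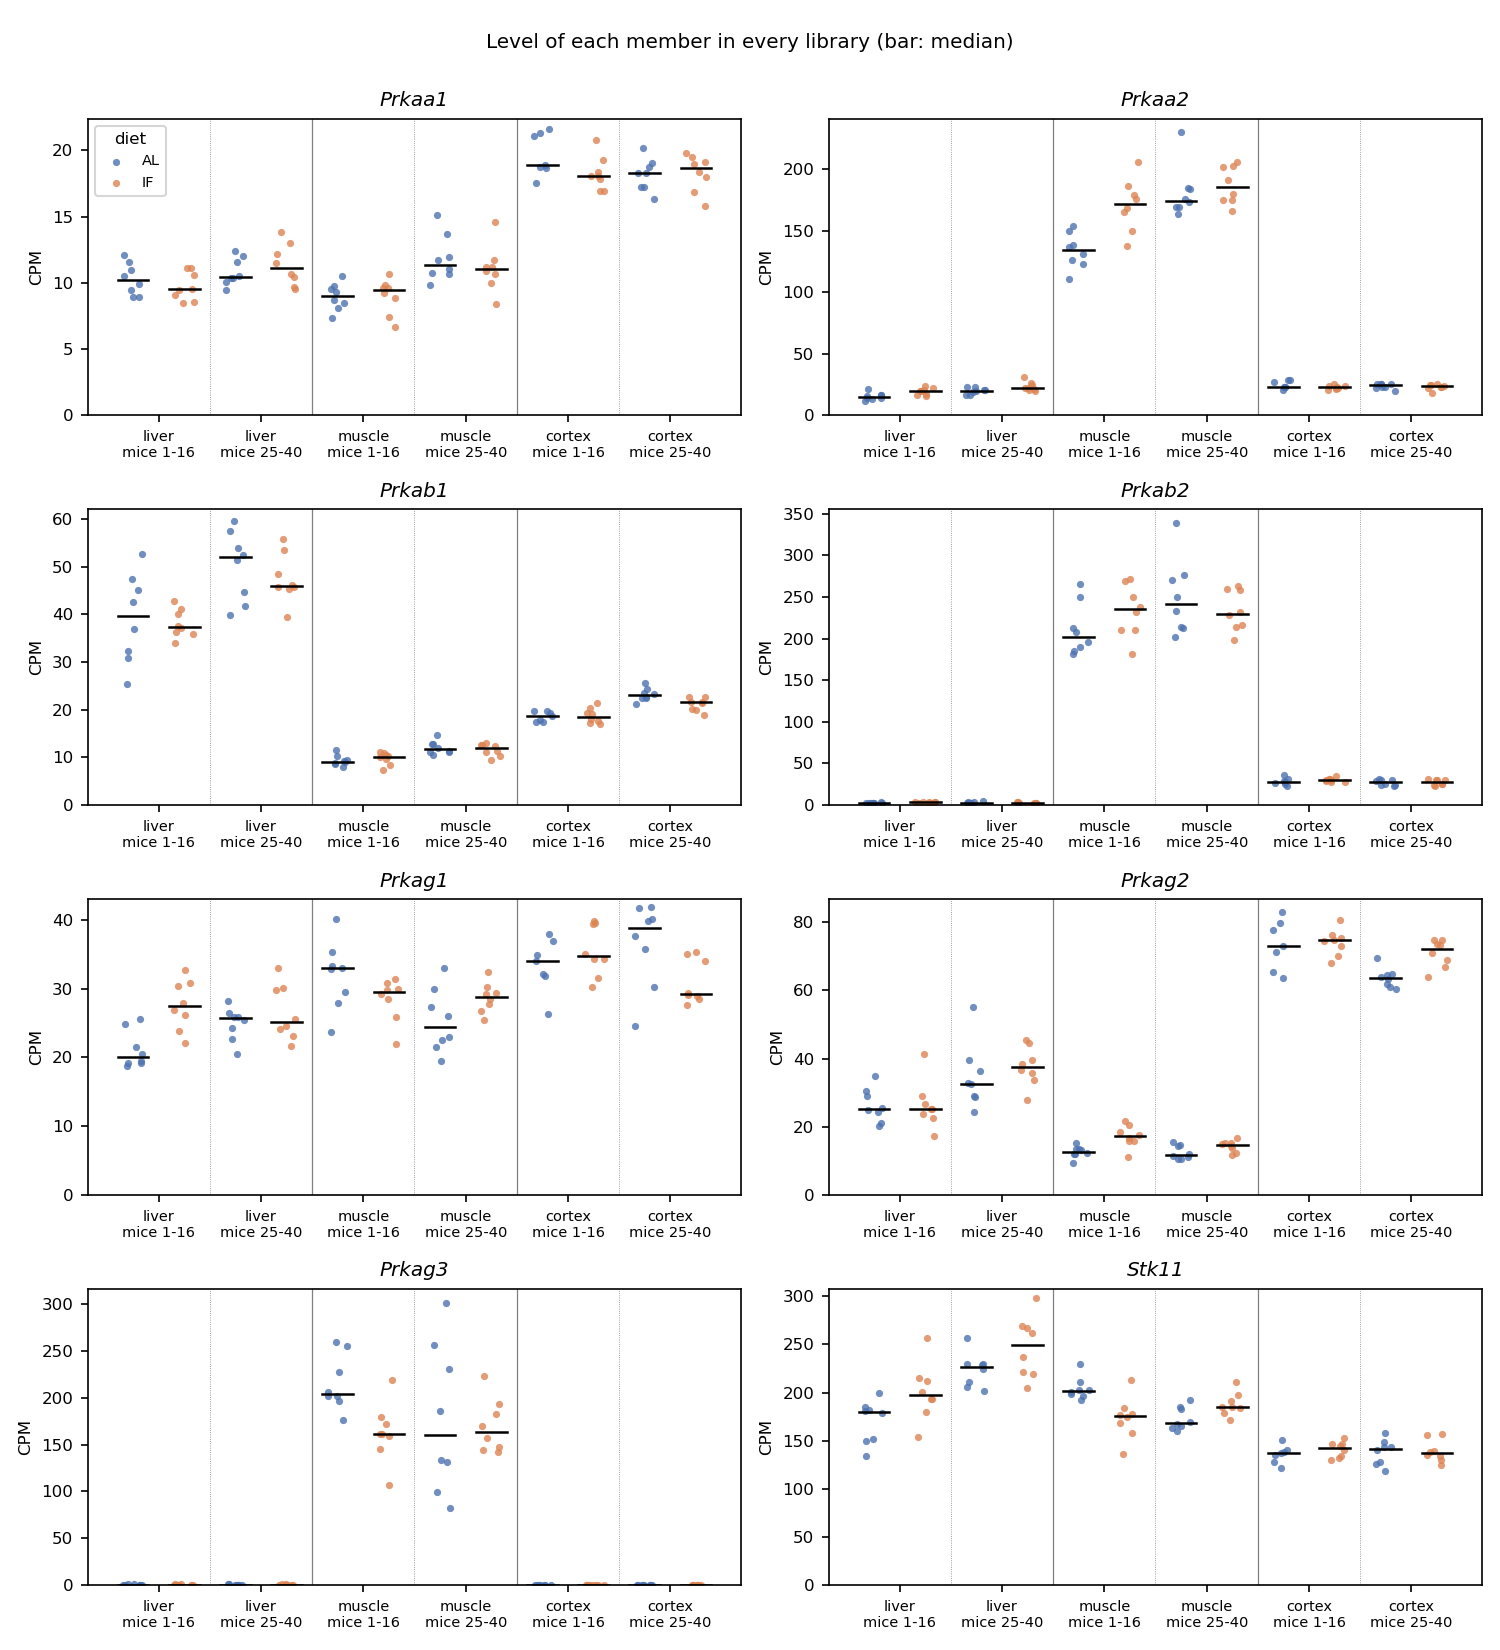
Level of each gene in every library (vertical axes, CPM from 0), by tissue and mouse set, with AL and IF libraries as points and the median as a bar. Prkaa2, Prkab2 and Prkag3 stand highest in muscle (medians of 134, 202 and 204 CPM in AL mice 1-16), Prkab1 in liver (39.7 CPM) and Prkag2 in cortex (73.0 CPM).

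Per length, the tissues differed in which isoform made up each family. In AL mice 1-16, the alpha isoforms summed to a median of 18.9 CPM per kb in muscle, 7.39 in cortex and 4.13 in liver. These sums use the scaling within a tissue, and the order of cortex and liver depends on it. With TMM over the tissues edgeR called neither alpha gene between liver and cortex (Prkaa1 -0.13, adjusted p 0.197, and Prkaa2 0.05, adjusted p 0.673). Of the muscle sum, alpha2 was 89.7%, with 89.1 and 90.4% as the lowest and highest library. In liver alpha2 took 46.6% (35.8 to 58.1%) and in cortex 41.0% (38.1 to 48.8%), so both isoforms were present in like amounts there. The beta2 share was 93.3% in muscle, 46.6% in cortex and 3.93% in liver, and no 2 of these tissues overlapped. The gamma family in muscle was 78.5% gamma3, 18.7% gamma1 and 2.66% gamma2. In liver it was 68.7% gamma1 and 30.4% gamma2, and in cortex 57.1% gamma1 and 42.9% gamma2. The order of isoforms in liver and cortex depended on the division by length. Without it Prkag2 took 56.3% and Prkag1 42.8% in liver and 69.1 and 30.9% in cortex, Prkaa2 took 59.9% in liver and 54.3% in cortex, and Prkab2 took 59.1% in cortex. By the measure per length the mRNA of muscle was mostly alpha2, beta2 and gamma3, that of liver beta1 with both alphas and, in this measure alone, more gamma1 than gamma2, and that of cortex was mixed in every family. Stk11 stood at 44.0 CPM per kb in muscle, 39.3 in liver and 29.9 in cortex, above every alpha isoform in each tissue.

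**Figure D2:**
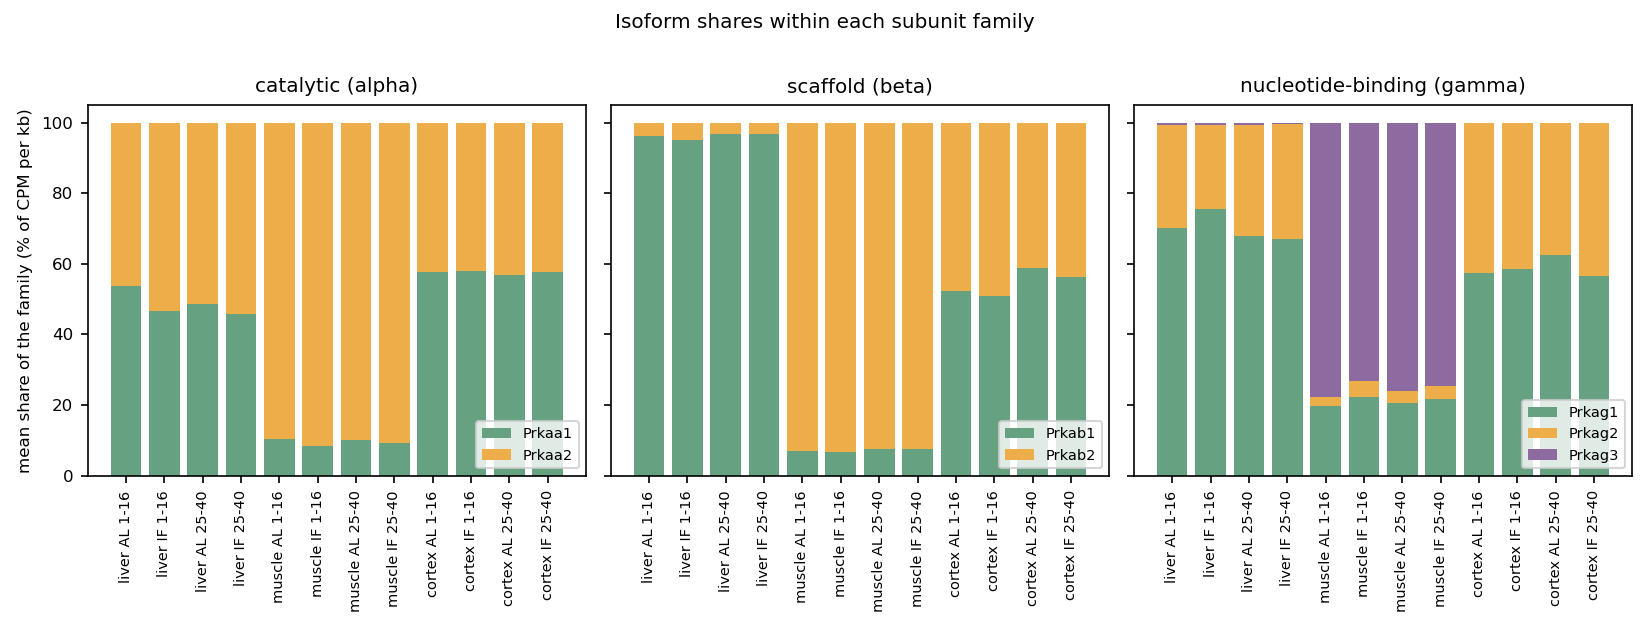
Mean share of each isoform in its subunit family (vertical axis, % of CPM per kb, stacked to the whole) in each tissue, diet and mouse set. The median alpha2, beta2 and gamma3 shares in muscle of AL mice 1-16 were 89.7, 93.3 and 78.5%, and the median beta2 share in liver was 3.93%.

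Diet was then compared within each tissue and mouse set. In liver of mice 1-16, 2 of the 8 genes were called, both higher in IF, where 23.5% of all genes tested were called higher and 21.1% lower. That share of 8 is near the background of higher calls and well below that of calls in either direction. In muscle of mice 1-16, 4 of 8 were called, 2 higher beside 11.5% of all genes and 2 lower beside 11.6%. The muscle share is above the background, and it rests on 4 genes. In cortex of mice 1-16, edgeR called 0 of the 7 genes tested, with 0 at an unadjusted p under 0.05 and 0 by DESeq2, beside 3.79% of all genes higher and 3.43% lower. The 1332 genes called there became 638 without AL replicate 2 and 2060 without IF replicate 4, the ends of the range over single libraries.

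The same test gave nearly no calls in mice 25-40. In liver edgeR called 0 of the 8 genes (1 at an unadjusted p under 0.05, 0 by DESeq2) and 0% of all genes (919 at an unadjusted p under 0.05, 6 by DESeq2). In muscle it called 0 of 8 (0 unadjusted, 0 by DESeq2) beside 0.00653% of all genes, which is 1 gene. In cortex it called 0 of 7 (3 unadjusted, 0 by DESeq2) beside 0.0109%, which is 2 genes. Without AL replicate 2 the cortex count became 254 genes. With backgrounds this low, a count of 0 sets the 8 genes apart from nothing.

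The catalytic subunit gene Prkaa2 rose with IF in liver and in muscle of mice 1-16. Liver held 11.6, 14.9 and 21.1 CPM in AL and 15.4, 19.4 and 23.9 CPM in IF. All 8 IF libraries lay above the AL median, 2 lay above the highest AL library, and the groups overlapped. The rise in liver was 0.33 ± 0.12 (adjusted p 0.0308), a value close to the threshold. The call ended without AL replicate 3 (adjusted p 0.0554), AL replicate 4 (0.0643), AL replicate 5 (0.0685), AL replicate 7 (0.0575), IF replicate 3 (0.129) or IF replicate 6 (0.0625), and with no expression filter (0.075, the highest over the 8 other settings, whose lowest was 0.00771). In muscle, Prkaa2 held 111, 134 and 154 CPM in AL and 138, 172 and 206 CPM in IF. There 6 of 8 IF libraries exceeded the highest AL library and all 8 exceeded the AL median. The rise was 0.36 ± 0.08 (adjusted p 0.00214). Cortex gave -0.13 ± 0.08 (adjusted p 0.331), with 20.4, 22.8 and 28.7 CPM in AL and 20.7, 22.4 and 24.996 CPM in IF.

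Prkaa2 in mice 25-40 was not called in any tissue. In liver the AL libraries held 16.2, 19.8 and 23.1 CPM and the IF libraries 19.2, 22.1 and 30.8 CPM. Of the IF libraries, 7 lay above the AL median, and the difference was 0.24 ± 0.11 (adjusted p 0.85). In muscle the AL libraries held 164, 174 and 230 CPM and the IF libraries 166, 186 and 206 CPM, a difference of 0.05 ± 0.07 (adjusted p 0.849). Prkaa1, the alpha1 subunit, was not called in any of the 6 diet comparisons, where its log2 fold changes ran from -0.11 to 0.07.

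The alpha2 share in muscle of mice 1-16 was 89.1, 89.7 and 90.4% in AL and 89.1, 91.7 and 93.6% in IF. In this tight measure 7 of 8 IF libraries lay above the highest AL library and 1 below the lowest. In liver the share was 35.8, 46.6 and 58.1% in AL and 49.9, 53.9 and 56.8% in IF. All 8 IF libraries lay above the AL median there, though below the highest AL library.

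The beta scaffold subunits were not called by diet in any tissue or mouse set. For Prkab2 in liver of mice 1-16, AL libraries held 1.84, 2.30 and 4.18 CPM and IF libraries 2.22, 3.38 and 4.02 CPM. Although 7 of 8 IF libraries lay above the AL median, the difference of 0.36 ± 0.21 did not pass (adjusted p 0.172), except in 1 fit over the 3 tissues (0.32, adjusted p 0.0451). In muscle, where Prkab2 is abundant, the difference was 0.14 ± 0.09 (adjusted p 0.28). Prkab1 stayed between -0.13 and 0.06 over the 6 comparisons, with its lowest adjusted p, 0.387, in cortex of mice 25-40. The beta2 share of liver went from a median of 3.93% in AL to 5.31% in IF with overlapping ranges, and that of muscle was 93.3 and 93.6%.

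All 3 gamma subunits were called somewhere in mice 1-16, each in 1 tissue. Prkag1 in liver held 18.8, 20.1 and 25.6 CPM in AL and 22.1, 27.4 and 32.7 CPM in IF. Of the 8 IF libraries, 6 exceeded the highest AL library and all 8 the AL median. The rise was 0.38 ± 0.11 (adjusted p 0.00464), called without any single library too. In muscle Prkag1 was not called (-0.17 ± 0.09, adjusted p 0.194), and none of the 8 IF libraries lay above the AL median. In cortex of mice 25-40 Prkag1 gave -0.23 ± 0.10 (adjusted p 0.402), again with 0 of 8 IF libraries above the AL median. Muscle of mice 25-40 had the opposite sign, with 8 of 8 IF libraries above the AL median and a difference of 0.18 ± 0.09 that was not called (adjusted p 0.493).

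Prkag2 in muscle of mice 1-16 held 9.504, 12.7 and 15.3 CPM in AL and 11.1, 17.2 and 21.8 CPM in IF. It was higher than the highest AL library in 7 of 8 IF libraries, and the remaining one lay within the AL range. The rise was 0.45 ± 0.11 (adjusted p 0.00538). In muscle of mice 25-40 all 8 IF libraries lay above the AL median (11.7 CPM), but the difference of 0.19 ± 0.10 was not called (adjusted p 0.483). In cortex of mice 25-40 the AL libraries held 60.4, 63.6 and 69.5 CPM and the IF libraries 63.96, 71.98 and 74.7 CPM. There 8 of 8 IF libraries lay above the AL median and 5 above the highest AL library, with a difference of 0.15 ± 0.05 that did not pass (adjusted p 0.299).

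Prkag3 in muscle of mice 1-16 held 176, 204 and 260 CPM in AL and 107, 161 and 219 CPM in IF. Below the lowest AL library lay 6 of 8 IF libraries, and 1 IF library lay above the AL median. Its level fell by 0.40 ± 0.11 on the log2 scale (adjusted p 0.0129), a call that ended in 1 fit over the 3 tissues (-0.41, adjusted p 0.338), where the lowest value over 8 settings was 0.00243. In mice 25-40 the AL libraries spread widely, at 82.5, 160 and 301 CPM, around IF libraries of 142, 164 and 223 CPM. The difference there was -0.06 ± 0.24 (adjusted p 0.946), and the difference between the sets was not called (0.35 ± 0.27, adjusted p 0.441).

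Within the gamma family of muscle, the share of gamma2 in mice 1-16 was 2.09, 2.66 and 3.003% in AL and 2.29, 4.47 and 5.90% in IF. Above the highest AL library stood 7 of 8 IF libraries, and the last lay inside the AL range. The gamma3 share was 72.5, 78.5 and 81.0% in AL and 63.3, 74.0 and 79.4% in IF, with overlap. In liver the gamma1 share went from a median of 68.7% in AL to 74.5% in IF, and 7 of 8 IF libraries lay above the AL median.

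Stk11, the upstream kinase, was called in muscle of mice 1-16. AL libraries held 192, 202 and 230 CPM and IF libraries 136, 176 and 213 CPM. Of the IF libraries, 7 of 8 lay below the lowest AL library and the remaining one lay above the AL median. The level fell by 0.24 ± 0.07 on the log2 scale (adjusted p 0.0178). The call ended when the libraries were scaled by their totals without TMM (-0.16, adjusted p 0.0866) and in 1 fit over the 3 tissues (-0.24, adjusted p 0.0523), with 0.00971 as the lowest over 8 settings. In liver of mice 1-16 Stk11 held 134, 180 and 200 CPM in AL and 153, 197 and 256 CPM in IF. There 7 of 8 IF libraries lay above the AL median, and the difference of 0.24 ± 0.11 was not called (adjusted p 0.0818). Leaving out 1 library moved it between 0.14 and 0.29 (adjusted p from 0.0367 to 0.304), a call only without IF replicate 8. With library totals it became a call (0.34, adjusted p 0.0232, in a range up to 0.178 over 8 settings). In mice 25-40 muscle held 160, 168 and 192 CPM in AL and 172, 185 and 211 CPM in IF. All 8 IF libraries lay above the AL median there, with a difference of 0.12 ± 0.06 (adjusted p 0.476).

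For muscle of mice 1-16, library totals without TMM moved the share of called genes that were higher in IF from 49.8 to 70.4%, and the 4 directions of the called members were the same in both scalings.

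**Figure D3:**
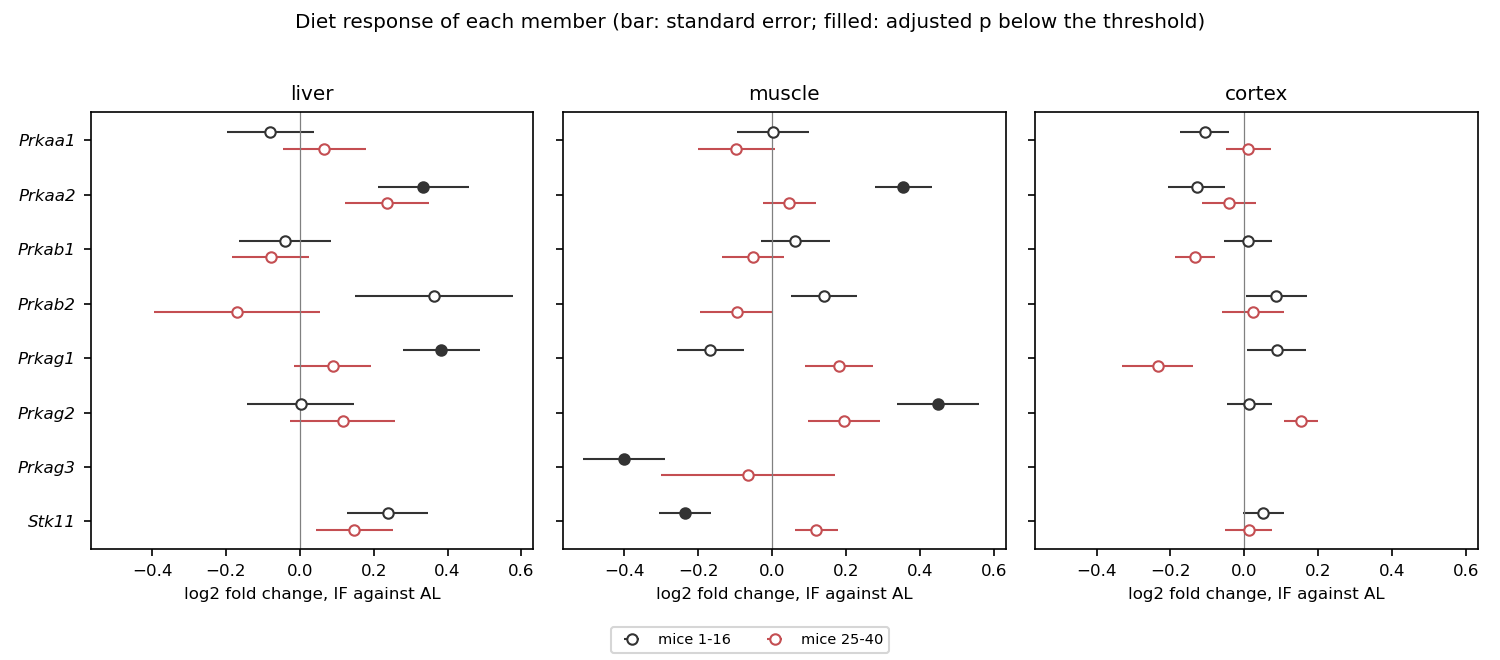
Log2 fold change of IF against AL for each gene in each tissue (horizontal axes), with standard errors as bars, mice 1-16 in dark grey and mice 25-40 in red, and filled points for an adjusted p under 0.05. The 6 filled points are all in mice 1-16, from -0.40 (Prkag3 in muscle) to 0.45 (Prkag2 in muscle), and their directions were the same with library totals. Prkag3 is not drawn in liver, where it is near 0, and was not tested in cortex.

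Whether a response differed between the mouse sets was tested directly, as the response of mice 25-40 minus that of mice 1-16. In liver edgeR called 0 of 8 genes (0 unadjusted, 0 by DESeq2) where 23.7% of all genes were called. In muscle 1 of 8 was called beside 14.2%, a share near the background. In cortex 0 of 7 were called (1 unadjusted, 0 by DESeq2) beside 2.03%. The 1 called gene was Stk11 in muscle, at 0.37 ± 0.09 (adjusted p 0.00544), with 7 of 8 IF libraries below the AL median in mice 1-16 and 8 of 8 above it in mice 25-40. For Prkaa2 in muscle the difference was -0.29 ± 0.11 (adjusted p 0.0716), so its call in mice 1-16 is not shown to be particular to that set. For Prkag1 in muscle, called in neither set, it was 0.36 ± 0.14 (adjusted p 0.0674).

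Scaling mattered for this comparison. Library totals moved the median of all genes by -0.17 in liver and -0.16 in muscle, and the share of called genes with a positive difference from 54.1 to 34.8% in liver and from 52.2 to 16.9% in muscle. With library totals the muscle value of Stk11 was 0.21 (adjusted p 0.0706) and no longer called. In that scaling Prkaa2 in muscle (-0.44, adjusted p 0.00396) and Prkag1 in liver (-0.43, adjusted p 0.0205) became calls. Relative to the shift of the median, none of these 3 values turned its direction.

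Responses were also compared between tissues of the same mice, with the mouse as a block. In mice 1-16, liver minus muscle gave 3 of 8 genes called beside 31% of all genes, a share near the background. The response of Prkag1 was 0.50 ± 0.14 higher in liver than in muscle (adjusted p 0.00468) and that of Stk11 0.43 ± 0.11 higher (adjusted p 0.00352). That of Prkag2 was lower in liver, by -0.50 ± 0.16 (adjusted p 0.0172), and this call ended with library totals (-0.43, adjusted p 0.0594). Liver minus cortex gave 1 of 8 beside 26.7%, which was Prkaa2 at 0.46 ± 0.13 (adjusted p 0.0103). Muscle minus cortex gave 1 of 8 beside 3.8%, again Prkaa2, at 0.51 ± 0.13 (adjusted p 0.0227). With Prkaa2 raised in liver and in muscle but not in cortex, its response in liver and muscle did not differ by this test (-0.05 ± 0.13, adjusted p 0.85).

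With library totals the median response of all genes in liver relative to cortex moved by 0.12, the share of positive calls went from 50.9 to 65.5% there and from 58.8 to 79.4% for muscle relative to cortex, and Prkag1 became a call in liver relative to cortex (0.42, adjusted p 0.0153). In mice 25-40, edgeR called 0 of 8 genes in each of these comparisons. The backgrounds were 0.0047% for liver minus muscle (0 members unadjusted, 0 by DESeq2), 0% for liver minus cortex (2 unadjusted, 0 by DESeq2, with 2037 genes unadjusted and 70 by DESeq2) and 0.0047% for muscle minus cortex (1 unadjusted, 0 by DESeq2).

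Markers of other cells moved with diet in the tissues where members were called. In liver of mice 1-16, a list of 5 blood genes, led by Hba-a1 and with none at 0, summed to 362, 569 and 956 CPM in AL and 667, 2070.4 and 6879 CPM in IF. A list of 3 endothelial genes, led by Kdr and with none at 0, summed to 33.1, 37.2 and 49.99 CPM in AL and 53.4, 64.8 and 91.3 CPM in IF, without overlap. The 5 hepatocyte genes held 50162, 54763 and 75831 CPM in AL and 44974, 58066 and 69000.1 CPM in IF, with full overlap. Their part in the liver results of Prkaa2 and Prkag1 was not tested.

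In muscle of mice 1-16, a list of 4 adipocyte genes, led by Cidec, summed to 9.81, 34.3 and 121 CPM in AL and 35.8, 176 and 613 CPM in IF, and at most 1 of the 4 was at 0 in an IF library. The 5 hepatocyte genes, led there by Cyp2e1 and with up to 3 of the 5 at 0, summed to 1.57, 4.71 and 11.9 CPM in AL and 35.1, 85.5 and 210 CPM in IF. A list of 5 slow fibre genes, led by Myl2, summed to 11.8, 598 and 1694 CPM in AL and 26.3, 383 and 563 CPM in IF. The wide spread of the slow fibre sum within each diet shows that the muscle pieces differed in slow fibre mRNA. With genes of its list at 0, the hepatocyte sum does not show liver cells in muscle. The part of what these 3 sums measure in the results of the 4 called genes was not tested.

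Prkag3 was set beside a list of 5 fast fibre genes, led by Myh4, which summed to 85656, 90159.6 and 95692 CPM in AL and 78483, 94221 and 102379 CPM in IF of mice 1-16. Fast fibre sums overlapped between the diets, and so did the levels of Prkag3, which was called lower in IF. The part of fast fibre content in that call was not tested. Over the 16 muscle libraries of mice 1-16, as deviations from the mean of each diet, Prkag3 and the fast fibre sum had a Pearson r of 0.74 (permutation p 0.00377, adjusted 0.0766) and a Spearman rho of 0.64 (permutation p 0.0106, adjusted 0.191). Without the 2 libraries farthest from the median r was 0.77. In mice 25-40 r was 0.72 (permutation p 0.0126, adjusted 0.101) and rho 0.75 (permutation p 0.0161, adjusted 0.191), with 0.75 for r without the 2 farthest. These are 2 of 32 relations of the 8 genes with fast and slow fibre sums, and none passed after adjustment over the 32.

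**Figure D4:**
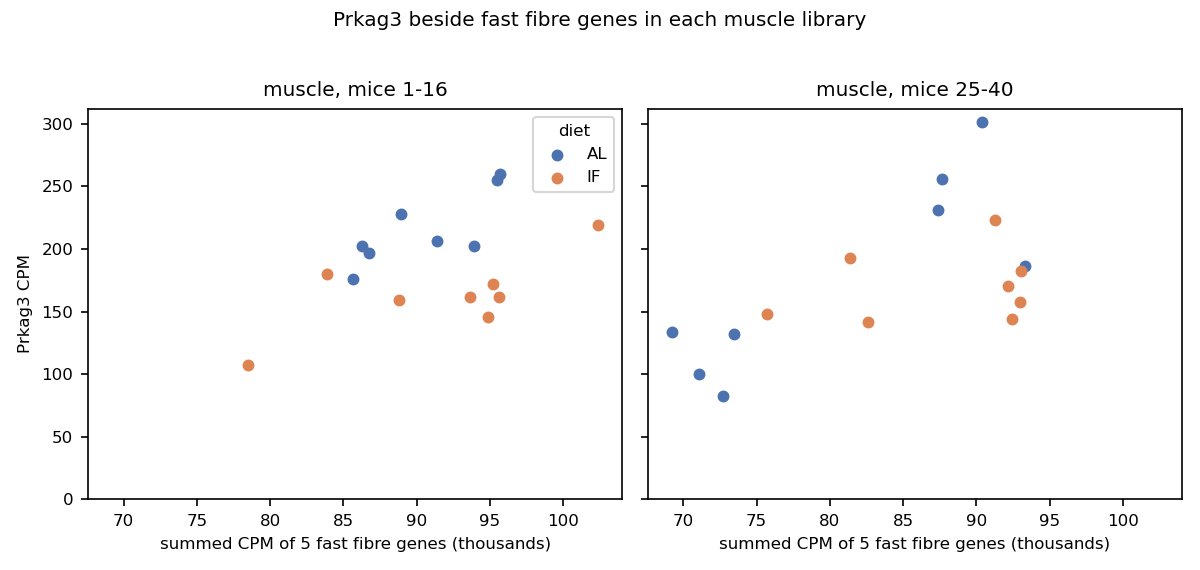
Prkag3 level (vertical axis, CPM from 0) against the summed level of 5 fast fibre genes (horizontal axis, kilo-CPM) in each muscle library, AL and IF, mice 1-16 and 25-40. As deviations from the mean of each diet, pooled over AL and IF, r was 0.74 in mice 1-16 and 0.72 in mice 25-40, and neither passed after adjustment over 32 relations.

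The genes around AMPK were read from 8 lists of 61 genes in all. In liver of mice 1-16, 56 were tested, 25 were called higher and 8 lower in IF (23.5 and 21.1% over all genes), with a median log2 fold change of 0.31 beside 0.06 over all genes. In muscle of mice 1-16, 17 of 59 were called higher and 9 lower (11.5 and 11.6% over all genes), with a median of 0.06 beside 0.01. In cortex of mice 1-16, 2 of 59 were called higher (3.79% over all genes). In mice 25-40 edgeR called 0 of 56 in liver, 0 of 60 in muscle and 0 of 59 in cortex, and DESeq2 also called 0 in each. No gene was called in both mouse sets, so the genes named here were chosen after their values were seen.

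LKB1 acts with STRAD and MO25 partners, and CAMKK2 is another upstream kinase of AMPK. In liver of mice 1-16, this list of 7 had 1 gene called higher and 3 lower (median -0.21). Over all genes 23.5% were called higher there and 21.1% lower. With library totals the lower calls of Camkk2 (adjusted p 0.0504) and Stradb (0.0634) ended. The higher call, Cab39l, ended with no filter (0.0578) and without IF replicate 3 (0.0738). The pseudokinase gene Strada held 9.51, 13.7 and 17.6 CPM in AL and 5.64, 8.99 and 10.4 CPM in IF and fell by 0.63 ± 0.16 on the log2 scale (adjusted p 0.00191). In muscle 0 of the 7 were higher and 1 lower (median -0.08), by edgeR, beside 11.5 and 11.6% of all genes. The lower gene was Camkk1, at -1.43 to -1.08 on leaving out 1 library (adjusted p 0.00768 to 0.0414).

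Of the regulators that bind or modify AMPK, 8 of 9 were called higher in liver of mice 1-16, where 23.5% of all genes were (median 0.68 beside 0.06 over all genes). Flcn, whose product folliculin binds AMPK through the FNIP proteins, held 28.3, 44.1 and 61.5 CPM in AL and 55.4, 92.5 and 155 CPM in IF. It rose by 1.08 ± 0.18 (adjusted p 6.1e-05). The stress-induced sestrin gene Sesn2 held 6.60, 9.77 and 14.3 CPM in AL and 15.1, 20.2 and 27.7 CPM in IF, with no overlap, and rose by 1.07 ± 0.16 (adjusted p 7.3e-06). In muscle 3 of 10 were higher and 2 lower (median 0.22), beside 11.5 and 11.6% of all genes. The higher calls of Flcn and Fnip1 both ended without AL replicate 2 (adjusted p 0.0511 and 0.0567). They also ended without AL replicate 3 (0.0515 and 0.0640) or IF replicate 4 (0.0576 and 0.0685). The scaffold gene Axin1 rose in liver by 0.42 ± 0.11 (adjusted p 0.00328) and fell in muscle by 0.53 ± 0.07 on the log2 scale (adjusted p 9.4e-06). For this list the response of liver was lower in mice 25-40 than in mice 1-16 in 6 of 10 genes tested, where 23.7% of all genes were called in either direction, and the median difference was -0.59 beside -0.04 over all genes.

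The AMPK-related kinases, which LKB1 also phosphorylates, had 4 of 11 called higher and 1 lower in liver of mice 1-16 (median 0.40). In muscle 4 were higher and 2 lower (median -0.12). Over all genes 23.5% were called higher and 21.1% lower in liver, and 11.5 and 11.6% in muscle. Snrk held 15.2, 19.2 and 21.8 CPM in AL and 28.2, 39.2 and 53.5 CPM in IF liver, with no overlap. Its rise was 1.12 ± 0.13 in liver (adjusted p 1.2e-07) and 0.81 ± 0.08 in muscle (adjusted p 4e-07). The salt-inducible kinase gene Sik1 rose by 1.27 ± 0.23 in liver (adjusted p 0.00015) and by 0.88 ± 0.11 in muscle (adjusted p 7.4e-06). The microtubule affinity kinase gene Mark2 fell in both, by 0.43 ± 0.11 and 0.41 ± 0.07 on the log2 scale (adjusted p 0.00311 and 0.000394).

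Substrates of AMPK in lipid metabolism had 0 of 6 called higher and 1 lower in liver of mice 1-16 by edgeR (median -0.14). In muscle 3 were higher and 1 lower (median 0.06). The shares over all genes were 23.5% higher and 21.1% lower in liver, and 11.5 and 11.6% in muscle. Srebf1, a transcription factor of lipid synthesis, held 305 to 690 CPM in AL liver and 116 to 349 CPM in IF liver and fell by 1.05 ± 0.25 on the log2 scale (adjusted p 0.00238). In muscle Acaca, an acetyl-CoA carboxylase, held 7.92, 9.01 and 17.3 CPM in AL and 14.5, 31.7 and 163 CPM in IF, a rise of 2.40 ± 0.50 (adjusted p 0.0031). The lipase gene Lipe rose there by 1.86 ± 0.35 (adjusted p 0.00161). These 2 genes are abundant in fat cells, and the adipocyte sum given above moved the same way in these libraries. Its part in the rises of Acaca and Lipe was not tested.

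Glucose substrates had 4 of 6 higher and 1 lower in liver of mice 1-16 (median 0.64), beside 23.5 and 21.1% of all genes. Gys2, the liver glycogen synthase, rose by 0.99 ± 0.10 (adjusted p 4.8e-08), from 82.0, 91.4 and 134 CPM to 166, 193 and 212 CPM without overlap. Gys1, the muscle form, fell in liver by 0.69 ± 0.18 on the log2 scale (adjusted p 0.00387) from a low level, with a median of 6.25 CPM in AL. In muscle 2 of 6 were higher (median 0.28), beside 11.5% of all genes.

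Growth and autophagy substrates had 2 of 5 higher in liver (median 0.15) of mice 1-16. In muscle 1 was higher and 1 lower (median -0.03). For this list and the next 2, the shares over all genes were 23.5% higher and 21.1% lower in liver. They were 11.5 and 11.6% in muscle. Transcription substrates had 4 of 6 higher in liver (median 0.42) and 3 higher and 1 lower in muscle (median 0.23). Among them the coactivator gene Ppargc1a rose in muscle by 0.70 ± 0.12 (adjusted p 0.000422), from 14.4, 16.3 and 19.5 CPM to 16.3, 29.4 and 32.7 CPM. Enzymes of adenine nucleotides, which set the AMP that AMPK senses, had 2 of 6 higher and 2 lower in liver (median 0.42). In muscle 1 of 8 was called each way (median -0.01), near the share over all genes. The mitochondrial adenylate kinase gene Ak4 rose in liver by 1.49 ± 0.22 (adjusted p 2.5e-05).

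Cortex of mice 1-16 had 2 of 59 pathway genes called higher and 1 lower, beside 3.79 and 3.43% of all genes. Acacb, an acetyl-CoA carboxylase, rose from 3.22, 3.70 and 4.63 CPM to 4.61, 6.39 and 9.25 CPM, by 0.85 ± 0.16 (adjusted p 0.00527), and its call ended in 1 fit over the 3 tissues (adjusted p 0.0609). The upstream kinase gene Camkk1, called lower in muscle, rose in cortex by 0.48 ± 0.13 (adjusted p 0.03). This call ended without AL replicate 2 (0.0689), 3 (0.0568), 4 (0.0573) or 5 (0.0582) or IF replicate 5 (0.0513) or 6 (0.0534). It also ended with no filter (0.0592), in 1 fit over the 3 tissues (0.488), with 7 mice per group (0.101) and with the library left out put back (0.0875). A list of 4 oligodendrocyte genes, led by Mbp and with none at 0, summed to 3652, 4468 and 5693 CPM in AL and 4943, 6528 and 8125 CPM in IF of these libraries, and its part in these values was not tested.

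The genes whose pattern was most like each member were ranked by Pearson r of log2 CPM over all 95 libraries, among 15853 genes. As libraries of 3 tissues fall in separate groups, these r mostly describe the tissue pattern and are given without a test. Prkaa1 was most like Adam10 (0.934), Pias1 and Rab14, and Prkaa2 most like Fxr1 (0.991), Ptp4a2 and Adipor1. The beta gene Prkab1 was nearest to Rnf43 (0.972), Vav2 and Mroh2a, and Prkab2 to Phkg1 (0.994), Aldoa and Pvalb. Among the gamma genes, Prkag1 was nearest to Fis1 (0.855), Rpl21-ps15 and Dohh, Prkag2 to Arhgap21 (0.968), D630045J12Rik and Madd, and Prkag3 to Scn4a (0.994), Kcna7 and Hoxc10. For Stk11 the nearest were Rnpepl1 (0.863), Elk4 and Tmco4.

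Over the 32 liver libraries alone, among 13423 genes, the nearest genes were others. These libraries pool both diets and mouse sets, so r there also describes differences between those groups. Prkaa2 was nearest to Bnip3 (0.859), Zfp91 and Rmdn1, and Stk11 to Per2 (0.872), Nmrk1 and Dennd5b. Prkag1 was nearest to Gemin2 (0.818), Mrps7 and Dctn2, and Prkag2 to Ist1 (0.834). Prkab1 was nearest to Zbtb39 (0.837), Zfp68 and Zcchc14, Prkab2 to Ctbp2 (0.785), Robo4 and Tlcd3b, and Prkaa1 to Zfp960 (0.691), Nlrc5 and Wac. Prkag3 had a mean under 1 CPM in liver and was not ranked.

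The promoters of all 8 genes were found in RefSeq (build GRCm38.p6) as 10 windows of 300 bases, 250 before and 50 after a start, 3 of them for Prkag2. The median window over 32851 promoters held 52.7% G and C and 7 CG pairs. Prkaa1 had the window richest in these bases among the 8 genes, with 82% and 52 CG pairs, and Prkag3 was near the median, with 54% and 11. Motifs were searched on both strands, or on 1 strand for CAGCTG and CACGTG, which read the same on both. The E-box letters CAGCTG, held by 16.3% of all windows, were found in 1 of the 8 genes, Prkag3, at position -40 from its start. The letters CCAAT, held by 37.4% of all windows, were found in Stk11 at -199, -153 and -115, and in Prkag1 and Prkag2. The letters GGGCGG (35.7% of all windows) were found in Prkaa1, Prkaa2, Prkab2, Prkag1, Prkag2 and Stk11, and TGACG (20.8%) in Prkaa2, Prkag1 and Stk11. GTAAACA (3.65%) was found in Stk11, while CACGTG (7.15%) and TATAAA (13.6%) were in none of the 10 windows.

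The promoters of the 2 genes that fell in muscle of mice 1-16 are shown as the 250 bases before the start, from RefSeq GRCm38.p6, because both members were called lower there and their windows hold different letters. Capitals mark CAGCTG in Prkag3, at chr1:74748956-74749205 on the minus strand, and CCAAT in Stk11, at chr10:80115545-80115794 on the plus strand. A match describes the letters and not a bound site.
Prkag3: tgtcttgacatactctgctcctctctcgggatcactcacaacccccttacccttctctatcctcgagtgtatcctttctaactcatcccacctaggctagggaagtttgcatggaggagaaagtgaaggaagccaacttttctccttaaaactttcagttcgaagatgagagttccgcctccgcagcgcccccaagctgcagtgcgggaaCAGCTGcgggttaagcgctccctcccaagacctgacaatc
Stk11: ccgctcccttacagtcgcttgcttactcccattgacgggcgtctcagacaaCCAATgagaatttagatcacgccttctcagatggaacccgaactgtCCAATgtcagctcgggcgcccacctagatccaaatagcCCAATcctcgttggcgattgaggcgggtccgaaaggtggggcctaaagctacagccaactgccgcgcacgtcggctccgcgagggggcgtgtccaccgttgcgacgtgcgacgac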

How the data were processed

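The gene counts were used as deposited. The authors' account names HISAT2 alignment to GRCm39 and featureCounts, and gives no strand setting. Genes passing filterByExpr (at least 10 reads) were tested with edgeR 4.0.16 (robust quasi-likelihood, TMM, limma 3.58.1) in R 4.3.3 and adjusted by Benjamini and Hochberg, and DESeq2 1.42.0 was the other tool. Comparisons between tissues took the mouse as a block. Tables, permutations (100000 resamples) and plots used Python 3.11.15, pandas 2.3.3, NumPy 2.4.6, SciPy 1.17.1 and matplotlib 3.10.9. Isoform shares and relations with fibre genes carry no test of diet.

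The members and the lists were chosen with earlier results of these data known. The naming rule named each of the 8 members, the 3 genes most like each member, and per list and tissue up to 5 pathway genes called in the same direction in both mouse sets. It named no pathway gene, so those named were chosen after their values were seen.

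Transcript counts give neither protein, phosphorylation nor kinase activity. Mouse set and sex label were not separable, cortex of AL mice 1-16 rests on 7 libraries, and cells of a tissue were not separated. Schedules of mice 25-40, and proteins, were not analysed here.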

Additional observations from a re-analysis of the deposited data

Results flagged for a closer look

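Of 94 groups of 7 or 8 libraries in which a member reached 10 reads, 2 held a library far from the others, where chance gives about 1 in 20 groups. Prkaa2 stood at 230.1 CPM in muscle of AL mouse 32, with the nearest library at 185 CPM, a gap of 0.687 of the range of the group. Prkaa2 also stood low in cortex of IF mouse 36, at 17.6 CPM with the nearest at 22.3 CPM, a gap of 0.644 of the range.

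In 6 cases the response of a member to diet differed between groups by a test of the difference itself. Stk11 in muscle differed between the mouse sets by 0.37 (log2). In mice 1-16, the responses in liver and muscle differed by 0.43 for Stk11, -0.50 for Prkag2 and 0.50 for Prkag1. The response of Prkaa2 in cortex was lower than that in liver by a log2 difference of 0.46 (liver minus cortex) and than that in muscle by 0.51 (muscle minus cortex). With library totals the call for Stk11 between the mouse sets ended (0.21, adjusted p 0.0706). So did that for Prkag2 between liver and muscle (-0.43, adjusted p 0.0594). The causes of these differences were not tested.

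In the library left out, cortex of AL mouse 1, Xist stood at 213 CPM although the mouse is labelled male.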

How the results depend on the processing

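Results were recomputed with 1 choice changed at a time. Libraries were left out in turn for the 6 diet comparisons, and not for the differences between mouse sets or between tissues. Scaling by library totals without TMM was chosen after seeing the data. Of the log2 fold changes of members, leaving out 1 library kept the side of the threshold, and the direction of a call, in 722 cases, lost a call in 6 and gained 1, while the other settings kept these in 776, lost a call in 9, gained 10 and turned 8. The sign of values called in neither setting was not counted. It changed for some of them near 0, such as Prkag2 in liver of mice 1-16 (-0.16 to 0.07 on leaving out 1 library). Among the turns, liver minus cortex was not called with TMM for Prkaa2 in mice 1-16 and for Prkag1 in both mouse sets. Nor was muscle minus cortex of Prkab1 in mice 1-16. The 8 turns came with library totals, in comparisons of tissue levels with cortex: for liver minus cortex Prkaa2 (-0.78 in mice 1-16, -0.24 in mice 25-40) and Prkag1 (-0.73, -0.52), and for muscle minus cortex Prkag1 (-0.13, -0.48), Prkab1 (-1.01 in mice 1-16) and Prkaa1 (-0.59 in mice 25-40). Counts of members called also moved there, to 8 for liver minus cortex in AL mice 1-16, to 1 for the difference between the mouse sets in liver and to 2 for the response of liver against cortex in mice 1-16. In liver of mice 1-16 the members called were 1 with no filter, and 1 (without AL replicate 3) to 3 (without IF replicate 8) on leaving out 1 library. In 1 fit over the 3 tissues, muscle of mice 1-16 had 2 members, 17 pathway genes and 2195 genes called, and liver of mice 25-40 had 283 genes. At unadjusted p under 0.05, liver of mice 25-40 had 1 member and 919 genes, muscle of mice 1-16 5309 genes, muscle of mice 25-40 1644 genes, cortex of mice 1-16 4400 genes, and cortex of mice 25-40 3 members and 2069 genes. DESeq2 called 6 genes in liver and 91 in muscle of mice 25-40, 2259 in cortex of mice 1-16 (5 pathway genes) and 73 in cortex of mice 25-40. Muscle of mice 25-40 had 5 genes with no filter, 4 in 1 fit over the tissues, and 1 (without AL replicate 1) to 3 (without AL replicate 3) without 1 library. Cortex of mice 1-16 had 119 genes and 0 pathway genes in 1 fit (edgeR, where the separate fit had 4400 genes unadjusted and DESeq2 2259), 498 and 1 with 7 mice per group, 294 and 1 with the library left out put back, and 638 genes (without AL replicate 2) to 2060 (without IF replicate 4) on leaving out 1 library, with 1 to 7 pathway genes. Cortex of mice 25-40 had 0 genes by edgeR with library totals (73 by DESeq2, 2069 unadjusted), 5 in 1 fit, and 0 (without AL replicate 1) to 254 (without AL replicate 2) without 1 library, with 0 to 2 pathway genes. Among called pathway genes, leaving out 1 library kept the call in 933 cases and lost it in 56, and the other settings kept 455 and lost 41. Without gene length 74 of the isoform shares moved by more than their spread and 10 did not. The division by gene length is the only step that differs between these measures. Libraries held at least 26097314 reads, and Prkag3 had at most 40 reads in a liver library, which limits its values there.

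Replicate numbers 1 to 8 are shared by AL and IF mice, which are different animals, so no pairing was used. A replicate block gave 382 genes and 1 pathway gene in cortex of mice 1-16, where the call of Camkk1 ended (adjusted p 0.0908 by edgeR), and 0 genes in cortex of mice 25-40 by edgeR (73 by DESeq2, 2069 unadjusted). As a check of pairing, libraries of the same number were alike (r over 0.1) in 2 and 2 of 8 cases in liver, 3 and 4 in muscle and 1 of 7 and 4 of 8 in cortex.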
